A study of Mus musculus with 6 samples.

Results

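Cytochrome P450 enzymes are haem proteins that insert oxygen into drugs, steroids, sterols, fatty acids and vitamins. 96 P450 genes were measured in cultured mouse lung fibroblasts, out of 22180 genes on the array that had a single gene symbol. They are the genes whose symbol begins with Cyp, a family number, a letter and a gene number, without Cyp51, and each is represented by its probe set of highest mean over the 6 arrays. 27 of the 96 gave a mean signal above the 95th percentile of olfactory and vomeronasal receptor genes and are called bright here, and 69 did not. The 96 include Cyp2c53-ps, Cyp2d37-ps, Cyp4f41-ps and Cyp4b1-ps2, which their symbols mark as pseudogenes. None of these was bright or differed between the groups at the threshold used. 10 of the 96 P450 genes differed between 4-hydroxytamoxifen (4OHT) and vehicle wells at an adjusted p under 0.05, 7 higher and 3 lower with 4OHT, which is 10.4% against 12% of all genes. Cyp4v3, a fatty acid hydroxylase gene, had the largest difference and rose 1.79-fold. Cyp1b1, a P450 of mesenchymal cells, was not called, and the 95% interval of its log2 fold change (4OHT minus vehicle) ran from -0.13 to 0.06.

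The cells were primary fibroblasts grown from lungs of adult mice of mixed strain and passaged no more than 3 times. Every culture carried UBCCreERT, a tamoxifen-inducible Cre recombinase driven by the ubiquitin C promoter, and an RSmoM2 allele, which encodes a constitutively active Smoothened once Cre has acted. 3 wells received 1 µg/ml 4OHT for 48 h and 3 wells received vehicle, and 100 ng of total RNA per well was labelled for a single-colour array. All arrays bear 1 genotype number and no label names separate animals, so p-values measure only the spread between these wells, which may be technical. No group received 4OHT without the allele, so the drug, Cre and active Smoothened cannot be told apart, and 4OHT is itself a compound that P450 enzymes handle.

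P450 enzymes of the endoplasmic reticulum draw electrons from a reductase and from cytochrome b5, and those of mitochondria draw them from ferredoxin. The CYP1, CYP2 and CYP3 families handle most foreign compounds, mainly in liver, and in lung chiefly in club cells. CYP4 enzymes hydroxylate fatty acids and eicosanoids at the end of the chain. Further families act on single substrates such as oxysterols, retinoic acid and vitamin D. In human liver, CYP3A and CYP2D enzymes convert tamoxifen to its active metabolites.

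Array medians lay between 7.44 and 7.47 on the log2 scale. The deposited RMA values come from a method that equalizes array distributions, so near-equal medians do not measure array quality. Gli1, the readout gene of active Smoothened, rose by 0.35 on the log2 scale (adjusted p = 0.0167). Its signal was low, with a mean of 6.81 in 4OHT wells and 6.46 in vehicle wells, the latter just below the brightness level. The rise was not called once any vehicle array was left out (adjusted p 0.0055 to 0.0560 over 12 alternatives). All 10 fibroblast markers were bright. Markers of other cell types were part bright, part dim. Of 5 epithelial markers 4 were bright, with Krt8 lower and Epcam dim, and their summed linear signal was 1805 to 1867 in 4OHT wells and 1935 to 2068 in vehicle wells. Of 5 alveolar type 2 markers 2 were bright, Abca3 (higher) and Sftpb, with Sftpc, Sftpa1 and Lamp3 dim. Their sum was 1844 to 2053 in 4OHT wells and 1653 to 1751 in vehicle wells. It came mostly from Abca3, and the other 4 markers were not called. 5 of 7 leukocyte and macrophage markers were bright, without Ptprc and Adgre1, and 1 of 5 hepatocyte markers was (Apoa1), with Alb dim. The part of such cells in the P450 results was not tested. The summed linear signal of 2 ciliated cell markers was 865 to 1051 in 4OHT wells and 387 to 435 in vehicle wells, nearly all from Tppp3, with Foxj1 dim. Values come from bulk wells, in which fewer cells of a type and less RNA per cell cannot be told apart.

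The brightness level was set from 1394 receptor genes that fibroblasts are not expected to use. Its value was a log2 expression of 6.47, the 95th percentile of their means over the 6 arrays, which 70 of them exceeded. 14358 of all 22180 genes (64.7%) lay above it, against 28.1% of P450 genes. The genes nearest to it were Cyp4a12b (mean 6.47) above and Cyp4f37 (mean 6.33) below. Cyp4a12b passed through its 4OHT wells, with a mean of 6.67 there and 6.28 in vehicle wells. Probes differ in affinity, so brightness sorts probe sets and is no amount of transcript, and with the 99th percentile of receptor genes (7.48) or the median of all genes (7.46) as the level 16 P450 genes were bright.

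**Figure D1:**
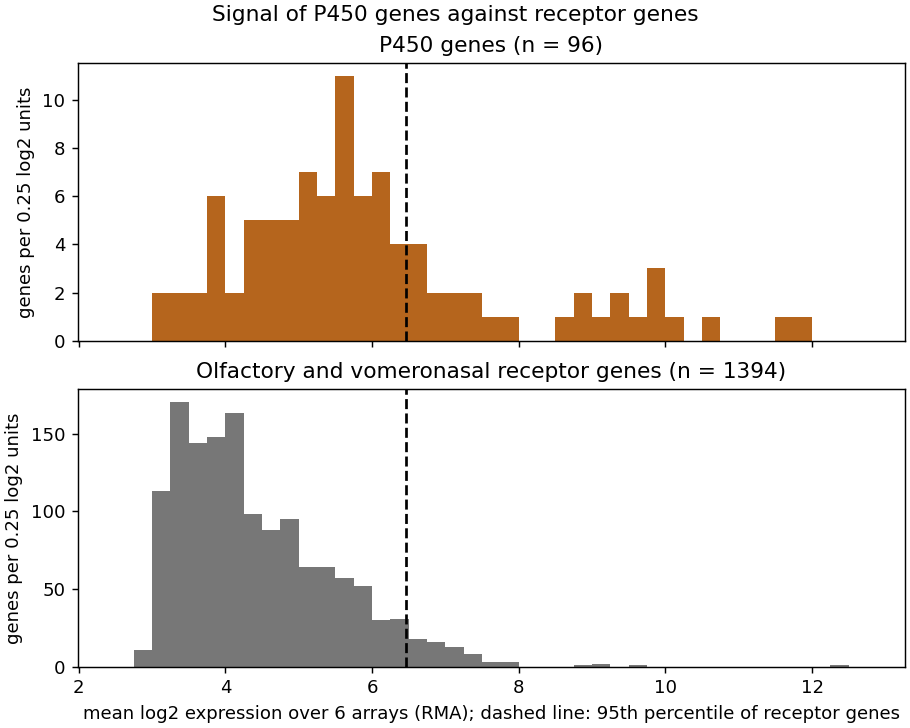
Histograms of the mean log2 expression over the 6 arrays for the 96 P450 genes (top) and the 1394 receptor genes (bottom), with the 95th percentile of receptor genes (6.47) as a dashed line. 27 P450 genes lie right of the line, and their means reach 11.88.

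Bright genes were mostly the sole members of their subfamily. Of 26 subfamilies with 1 measured gene, 17 were bright, among them Cyp1b1, Cyp2r1, Cyp2s1, Cyp2u1, Cyp4v3, Cyp20a1, Cyp27a1 and Cyp39a1. The 11 subfamilies with several genes held 70 genes, of which 10 were bright. The 70 include the pseudogenes of CYP2C, CYP2D, CYP4B and CYP4F, and CYP4B holds several genes only through Cyp4b1-ps2. In the CYP2C subfamily 1 of 15 genes was bright, in CYP2D 2 of 10, in CYP4F 3 of 10, and in CYP2B and CYP3A none of 5 and none of 7. Genes of these clusters resemble each other closely, and probes of 1 gene may read its neighbours. 6 further probe sets name several genes, at least 1 of them a P450 gene, and were not used.

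10 of 96 P450 genes (10.4%) passed an adjusted p under 0.05, against 12% of all genes tested. 7 were higher (5.38% of all genes were) and 3 lower (6.62% of all genes were). Among bright genes 9 of 27 passed, against 17.2% of all genes above the level, with 7 higher (7.6%) and 2 lower (9.57%). Cyp4a12b, 1 of those 7, was bright only through its 4OHT wells. With both group means required above the level, a rule added after seeing the data, 26 P450 genes were bright and 8 passed, 6 higher and 2 lower, against 17.1% of 14115 genes. These counts describe the genes that passed the level and not all P450 genes. Among dim genes 1 of 69 passed, against 2.52% of all genes at or below the level, and it was lower (1.3% of those genes were higher and 1.21% lower). At an adjusted p under 0.01, 3 P450 genes passed (4.55% of all genes did), and all were bright (6.84% of bright genes passed, and 0.358% of dim genes). The median log2 fold change was 0.016 over all P450 genes, 0.061 over bright P450 genes and -0.0051 over all genes. The 2 groups did not overlap in 17 P450 genes (32.7% of all genes), in 12 of the bright ones (43.4% of bright genes) and in 5 of the dim ones (13.1% of dim genes). Without 4OHT replicate 2, 5 P450 genes passed and none was lower, and 5.5% of all genes passed.

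Promoter sequence is shown for the bright P450 genes of largest rise and largest fall and for Cyp1b1, a target of the aryl hydrocarbon receptor. Each runs 5′ to 3′ over the 250 bases before the start of the gene, from RefSeq on GRCm38.p6. Capitals mark GCGTG, the core bound by the aryl hydrocarbon receptor with its partner, CACGTG, an E-box read by many helix-loop-helix factors, and AGGTCA, a nuclear receptor half-site, each searched on both strands.
Cyp4v3: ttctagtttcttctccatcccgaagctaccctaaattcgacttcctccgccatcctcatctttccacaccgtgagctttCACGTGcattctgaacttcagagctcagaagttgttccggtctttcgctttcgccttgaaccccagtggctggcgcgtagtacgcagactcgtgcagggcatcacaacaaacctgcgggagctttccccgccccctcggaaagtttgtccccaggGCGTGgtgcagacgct
Cyp26b1: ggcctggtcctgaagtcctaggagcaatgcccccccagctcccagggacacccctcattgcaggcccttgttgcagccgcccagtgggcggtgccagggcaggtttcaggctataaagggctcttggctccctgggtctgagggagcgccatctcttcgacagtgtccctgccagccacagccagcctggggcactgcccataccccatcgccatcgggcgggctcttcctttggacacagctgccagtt
Cyp1b1: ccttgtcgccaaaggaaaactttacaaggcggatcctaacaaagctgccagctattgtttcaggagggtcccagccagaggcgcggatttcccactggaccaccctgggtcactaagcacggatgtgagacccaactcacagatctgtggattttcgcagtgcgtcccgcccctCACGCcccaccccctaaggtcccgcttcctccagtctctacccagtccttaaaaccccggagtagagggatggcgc

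The Cyp4v3 window (chr8:45333164-45333413, minus strand) holds an E-box that begins 171 bases before the start and a GCGTG that begins 16 bases before it. The Cyp26b1 window (chr6:84593811-84594060, minus strand) holds none of the 3 motifs. The Cyp1b1 window (chr17:79715062-79715311, minus strand) holds 1 GCGTG on the opposite strand, printed as CACGC, 76 bases before the start. The marked motifs do not overlap in these windows. Of all 32851 promoter windows of this length 28.2% hold GCGTG, 6.02% CACGTG and 14% AGGTCA, against 19.2%, 2.56% and 23.1% of the 78 windows of P450 genes. In the 19 windows of bright P450 genes the shares were 36.8%, 10.5% and 5.26%, on the other side of those over all windows for each motif, from 7, 2 and 1 windows. 70 of the 96 P450 genes matched the table, some with several windows, such as Cyp3a25. AGGTCA recurred at similar positions in related genes, such as 138 bases before the start in both Cyp2b13 and Cyp2b9. Windows of related genes are not independent, which limits these shares. A match is a string of letters and not a binding site.

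Cyp1b1 hydroxylates oestrogens and polycyclic hydrocarbons and is the CYP1 enzyme of mesenchymal cells. It had log2 expression of 11.87, 11.85 and 11.87 in 4OHT wells and 11.91, 11.91 and 11.87 in vehicle wells. The groups overlapped, and the difference was not called (log2 fold change -0.036, SE 0.041, adjusted p = 0.640). Its 95% interval of -0.13 to 0.06 leaves out a change of the size seen in any of the 10 called genes. Cyp1a1, the most inducible target of the aryl hydrocarbon receptor, was dim, with 6.17, 6.14 and 6.13 in 4OHT wells and 6.36, 6.26 and 6.10 in vehicle wells (adjusted p = 0.474). Cyp1a2, which shares its control region, was dim as well (log2 fold change 0.01, adjusted p = 0.955).

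Of 9 measured genes of the aryl hydrocarbon receptor pathway, 8 of them bright, 1 was higher and 1 lower, with a median log2 fold change of 0.016. Over all genes 12% were called, and 17.2% of those above the level, so a count of this size is near the background. Ahr, the receptor gene, fell to 11.82, 11.81 and 11.75 in 4OHT wells, against 12.12, 12.08 and 12.12 in vehicle wells (log2 fold change -0.31, adjusted p = 0.0060). Arnt2, which encodes a dimerization partner of receptors of its class, rose by 0.65 on the log2 scale (adjusted p = 0.000785). Arnt, the usual partner, and Nqo1, a reductase gene induced by the receptor and by NRF2, had log2 fold changes of 0.09 and 0.26 (adjusted p = 0.305 and 0.0558).

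Enzymes of cholesterol side-chain and oxysterol metabolism went both ways. 5 of the 6 were bright, 1 rose and 1 fell, where 12% of all genes and 17.2% of those above the level were called. Cyp27a1, the mitochondrial sterol side-chain hydroxylase, had log2 expression of 9.18, 9.20 and 9.18 in 4OHT wells and 8.78, 8.81 and 8.79 in vehicle wells. Wells of a group lay close together and the groups did not overlap. It rose 1.31-fold (log2 fold change 0.39, SE 0.039, adjusted p = 0.00173), and the call held in all 12 alternatives. Macrophages also use Cyp27a1. Of 7 measured leukocyte and macrophage markers 1 was higher (Cd68) and 1 lower (Lyz2), where 12% of all genes were called. The summed linear signal of these markers was 2108 to 2214 in 4OHT wells and 2107 to 2236 in vehicle wells. Lyz2, the brightest of them (mean 10.15), and Cd68 (mean 8.95) had log2 fold changes of -0.24 and 0.48. These opposite changes offset each other in the sum. The part of macrophages in the Cyp27a1 result was not tested.

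Cyp39a1, which hydroxylates an oxysterol made in brain, fell to 9.32, 9.46 and 9.63 in 4OHT wells, against 9.82, 9.81 and 9.89 in vehicle wells. The groups did not overlap, but the 4OHT wells spread (SD 0.156, against 0.047 in vehicle wells). Its log2 difference was -0.36 (SE 0.082, adjusted p = 0.0340), and the call was lost without any of 5 arrays and kept without 4OHT replicate 3 (adjusted p 0.0150 to 0.109 over these). Cyp7b1, an oxysterol hydroxylase gene, had 8.91, 8.99 and 8.98 in 4OHT wells and 8.79, 8.73 and 8.85 in vehicle wells. These groups did not overlap either, with a log2 fold change of 0.17 and an adjusted p of 0.0850. Cyp46a1, the brain cholesterol hydroxylase gene, and Cyp8b1, a bile acid hydroxylase gene, had log2 fold changes of -0.18 and -0.034 (adjusted p = 0.308 and 0.889). Without vehicle replicate 2 Cyp46a1 was lower (log2 fold change -0.29, adjusted p = 0.0393, the lowest over 12 alternatives, of which the highest was 0.562). Cyp7a1, the rate-limiting enzyme of bile acid synthesis in liver, was dim at a mean of 4.23.

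Of 20 measured steroid and oxysterol handling genes, 16 of them bright, 7 rose and none fell, against 5.38% higher and 6.62% lower of all genes (7.6% and 9.57% of those above the level). Their median log2 fold change was 0.10, against -0.0051 over all genes. Star, whose product carries cholesterol to the mitochondrial P450 enzymes, had 9.45, 9.50 and 9.47 in 4OHT wells and 8.15, 8.10 and 8.11 in vehicle wells, a 2.55-fold rise (adjusted p = 0.000114). Ch25h, a cholesterol hydroxylase gene outside the P450 family, rose 1.43-fold (adjusted p = 0.0044), and Stard4, a sterol carrier gene, 1.44-fold (adjusted p = 0.0055). Hsd17b11, a steroid dehydrogenase gene, rose by 0.26 on the log2 scale (adjusted p = 0.0083).

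P450 enzymes of steroid hormone synthesis were not bright. 5 of the 6 listed genes were measured, and means ran from 5.13 for Cyp21a1 to 5.97 for Cyp11a1, the side-chain cleavage enzyme that uses the cholesterol Star delivers. Cyp21a1, the adrenal steroid hydroxylase, was the 1 dim P450 gene that passed. It had 4.91, 4.94 and 5.08 in 4OHT wells and 5.33, 5.30 and 5.22 in vehicle wells (log2 fold change -0.31, SE 0.062, adjusted p = 0.0232). In the annotation Cyp21a1 overlaps Tnxa, and the call was lost without any of 4 arrays (4OHT replicates 1 and 2, vehicle replicates 1 and 2; adjusted p 0.0175 to 0.0895 over the 6). Cyp17a1, the hydroxylase on the way to androgens, showed a log2 difference of -0.20 with an adjusted p of 0.0988.

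Cyp26b1, the retinoic acid hydroxylase of mesenchyme, showed the largest fall among the P450 genes. It had log2 expression of 8.23, 8.43 and 8.45 in 4OHT wells and 8.67, 8.78 and 8.97 in vehicle wells. The groups did not overlap, and both spread more than for most bright P450 genes. It was lower by a factor of 1.35 (adjusted p = 0.0303), and the log2 fold change was -0.44 with an SE of 0.095. The call was lost without any of 5 arrays and kept without vehicle replicate 1 (adjusted p 0.0360 to 0.0879 over these). Cyp26c1 lay near the brightness level and was not called (log2 fold change -0.046), and Cyp26a1, the retinoic acid-induced member, was dim (log2 fold change 0.043).

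Of 15 measured retinoid handling genes, 14 of them bright, 3 rose and 4 fell, against 5.38% higher and 6.62% lower of all genes (7.6% and 9.57% of those above the level), with a median log2 fold change of -0.030. Crabp2, which carries retinoic acid to its nuclear receptors, had 10.27, 10.36 and 10.43 in 4OHT wells and 8.94, 9.05 and 9.08 in vehicle wells, a 2.52-fold rise (adjusted p = 0.000188). Dhrs3, a retinal reductase gene, rose 1.37-fold (adjusted p = 0.0032). Aldh1a1 and Aldh1a2, whose products make retinoic acid, fell by 0.40 and 0.36 on the log2 scale (adjusted p = 0.0034 and 0.0055). Endothelial markers differed in the same wells. Of 5 endothelial markers 2 were higher (Tek, Kdr) and 2 lower (Cdh5, Pecam1), against the 5.38% higher and 6.62% lower of all genes. Tek and Cldn5 were dim. The summed linear signal of the 5 markers was 622 to 647 in 4OHT wells and 724 to 766 in vehicle wells. The part of these cells in the Cyp26b1 result was not tested.

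Among vitamin D enzymes Cyp2r1, which performs the first activating hydroxylation, rose. It had 9.68, 9.71 and 9.62 in 4OHT wells and 9.29, 9.27 and 9.37 in vehicle wells. Every 4OHT well lay above every vehicle well. The rise was 1.28-fold (log2 fold change 0.36, SE 0.049, adjusted p = 0.0059) and was called in all 12 alternatives. Cyp24a1, which inactivates the hormone and is a direct target of its receptor, lay near the brightness level with a log2 fold change of 0.09 (adjusted p = 0.474). Cyp27b1, which makes the active hormone, was dim (log2 fold change -0.018).

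Of 21 measured nuclear receptor genes that act on P450 genes, 1 rose and 2 fell, near the 12% called over all genes, with a median log2 fold change of 0.033. Vdr, the vitamin D receptor gene, had 8.59, 8.51 and 8.64 in 4OHT wells and 9.37, 9.27 and 9.51 in vehicle wells, 1.75-fold lower (adjusted p = 0.00121). Esr1, the oestrogen receptor that tamoxifen compounds bind, fell by 0.37 on the log2 scale (adjusted p = 0.0035). Ppard, a fatty acid sensor gene, rose by 0.27 (adjusted p = 0.0334), a call kept without 4OHT replicate 3 and lost without any of the other 5 arrays (adjusted p 0.0218 to 0.117 over these). Nr1h3, which encodes the oxysterol receptor LXR alpha, showed a log2 difference of 0.25 (adjusted p = 0.0531).

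Cyp4v3, whose human counterpart hydroxylates medium-chain fatty acids and is mutated in a crystalline retinal dystrophy, changed most among the P450 genes. Its log2 expression was 10.37, 10.44 and 10.41 in 4OHT wells and 9.55, 9.53 and 9.64 in vehicle wells. The groups stood well apart, with SDs of 0.037 in 4OHT wells and 0.059 in vehicle wells. It rose 1.79-fold (log2 fold change 0.84, SE 0.050, 95% interval 0.72 to 0.96, adjusted p = 0.00034) and was called in all 12 alternatives. Cyp4v3 overlaps the predicted gene Gm30504 in the annotation. A further probe set, which names both Klkb1 and Cyp4v3 and was not used, was dim (mean 5.47) with a log2 difference of 0.12.

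**Figure D2:**
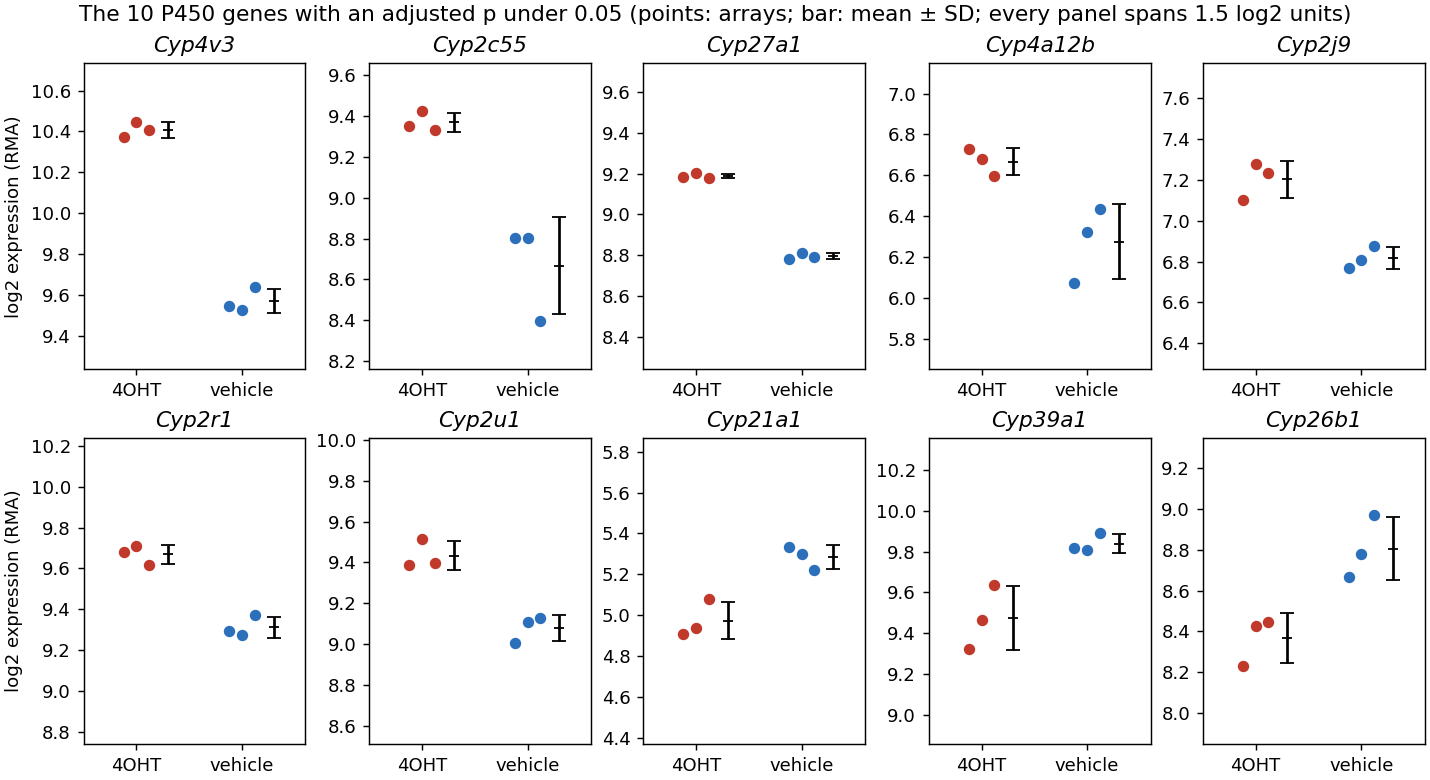
Log2 expression on each array for the 10 P450 genes with an adjusted p under 0.05, 4OHT wells (red) left of vehicle wells (blue), with mean ± SD (n = 3 each) as black bars and the same height of scale in every panel. In every panel the groups do not overlap, and the gap is widest for Cyp4v3.

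Other CYP4 genes showed smaller differences. Cyp4f13, Cyp4f16 and Cyp4f17, of the subfamily that hydroxylates leukotrienes and long-chain fatty acids, had log2 fold changes of 0.027, 0.11 and 0.09, none of them called. Cyp4f17 did not overlap between groups, with 10.17, 10.23 and 10.21 in 4OHT wells and 10.09, 10.14 and 10.09 in vehicle wells (adjusted p = 0.227). Cyp4x1 showed a log2 difference of 0.07 (adjusted p = 0.785). Cyp4a12b, an arachidonic acid hydroxylase gene of kidney and liver, had 6.73, 6.68 and 6.59 in 4OHT wells and 6.07, 6.32 and 6.44 in vehicle wells (log2 fold change 0.39, SE 0.096, adjusted p = 0.0454). The call was lost without any of 5 arrays and kept without vehicle replicate 3 (adjusted p 0.0353 to 0.139 over these). Its near-identical neighbour Cyp4a12a was dim and not called (log2 fold change 0.18, adjusted p = 0.464), and cross-hybridization of the pair was not tested.

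Of 49 measured CYP2 genes 11 were bright, and Cyp2r1, Cyp2u1, Cyp2j9 and Cyp2c55 among them rose, Cyp2c55 by its brighter probe set only. Over all genes 5.38% were higher, and 7.6% of those above the level. Cyp2u1, which hydroxylates long-chain fatty acids and in humans is mutated in a spastic paraplegia, had 9.39, 9.51 and 9.40 in 4OHT wells and 9.01, 9.11 and 9.13 in vehicle wells. It rose 1.28-fold (log2 fold change 0.35, SE 0.057, adjusted p = 0.0114). Cyp2j9, of the subfamily that makes epoxides of arachidonic acid, had 7.10, 7.28 and 7.23 in 4OHT wells and 6.77, 6.81 and 6.88 in vehicle wells, a 1.31-fold rise (log2 fold change 0.39, SE 0.061, adjusted p = 0.01003). Both were called in all 12 alternatives, and neither gene's groups overlapped. Cyp2j6, the neighbour of Cyp2j9 in the gene cluster, showed a log2 difference of 0.06 (adjusted p = 0.519).

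Cyp2c55, an arachidonic acid hydroxylase gene known from mouse colon, had 9.35, 9.42 and 9.33 in 4OHT wells and 8.80, 8.80 and 8.40 in vehicle wells. Vehicle replicate 3 lay well below the other vehicle wells, and the groups did not overlap. These values come from the brighter probe set, which rose 1.63-fold (log2 fold change 0.70, SE 0.114, adjusted p = 0.0113). A second probe set of Cyp2c55 was dim (mean 4.52) with a log2 fold change of -0.14. Which probe set reads the Cyp2c55 transcript was not tested. With the mean of both probe sets the difference was not called (log2 fold change 0.28, adjusted p = 0.212), nor was it without 4OHT replicate 2 (adjusted p = 0.0502; 0.00035 to 0.212 over 12 alternatives).

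The remaining bright genes were not called. Cyp20a1, an enzyme with no settled substrate, had 11.61, 11.69 and 11.65 in 4OHT wells and 11.61, 11.59 and 11.58 in vehicle wells (log2 fold change 0.06, 95% interval -0.04 to 0.16). Its groups did not overlap, but the gap between the nearest wells was narrow and the interval spans 0. Cyp2d22, often taken as the mouse counterpart of human CYP2D6, which converts tamoxifen, had 10.54, 10.74 and 10.64 in 4OHT wells and 10.61, 10.60 and 10.70 in vehicle wells. These overlapped (log2 fold change 0.0059, 95% interval -0.15 to 0.16, adjusted p = 0.967). Cyp2s1, Cyp2w1, Cyp2a22 and Cyp2d40 had log2 fold changes between -0.11 and 0.028, none called.

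**Figure D3:**
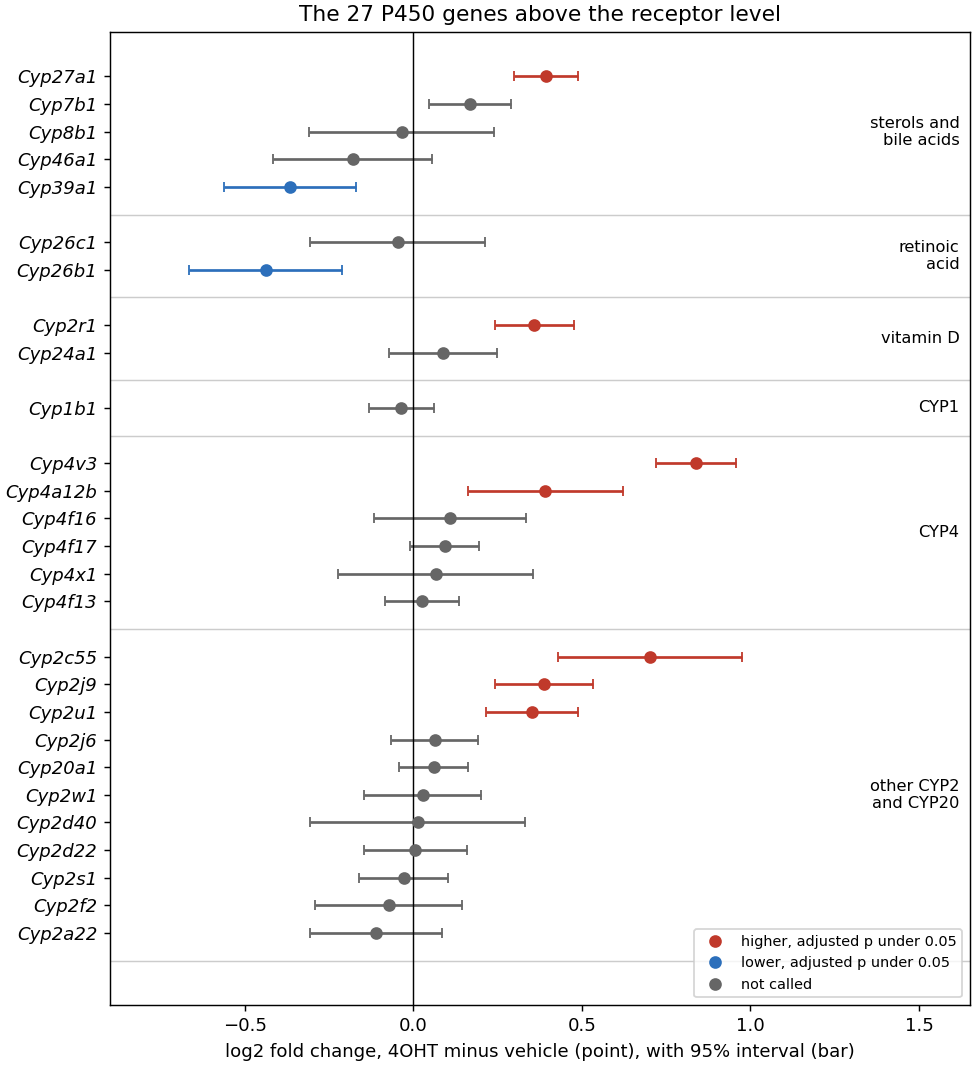
Log2 fold changes (4OHT minus vehicle, points) with 95% intervals (bars) for the 27 bright P450 genes, red where higher, blue where lower and grey where not called. Genes acting on sterols and bile acids, retinoic acid or vitamin D are grouped by substrate, and the others by family. They run from -0.44 (Cyp26b1) to 0.84 (Cyp4v3), and 18 genes were not called.

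All 7 CYP3A genes were dim, with means of 3.20 to 5.55 and log2 fold changes of -0.17 to 0.17, none called. Cyp2e1, the ethanol-oxidizing enzyme, and Cyp2b10, the classic phenobarbital target, had means of 6.06 and 6.07 and were not called. Cyp2f2, the naphthalene-activating enzyme of mouse club cells, was bright but near the level, with a mean of 6.57 and a log2 fold change of -0.07 (adjusted p = 0.672). A second probe set of Cyp2f2 was dim (mean 5.89, log2 fold change -0.0091). Of the 3 club cell markers beside Cyp2f2, Scgb1a1 and Scgb3a2 were dim at means of 4.23 and 3.93, and Scgb3a1 was lower (log2 fold change -0.37). Their summed linear signal was 145 to 158 in 4OHT wells and 175 to 191 in vehicle wells. None of 5 hepatocyte markers was called. Over the 69 dim P450 genes log2 fold changes ran from -0.31 to 0.27, with a median of 0.012.

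Measured partners that feed electrons and haem to the P450 enzymes mostly were not called. Por, the P450 reductase gene, and Fdxr and Fdx2 (listed also as Fdx1l) were listed as redox partners but not measured. No probe set carried any of these names as its single symbol. Of 8 measured redox partner genes, all bright, 2 rose and none fell, where 17.2% of all genes above the level were called, with a median log2 fold change of 0.08. Cyb5r2, a cytochrome b5 reductase gene, had 8.77, 8.85 and 8.94 in 4OHT wells and 8.19, 8.47 and 8.40 in vehicle wells, a 1.42-fold rise (adjusted p = 0.0126). Its call was lost without 4OHT replicate 2 (adjusted p = 0.0519; 0.00080 to 0.0519 over 12 alternatives). Pgrmc2, a haem carrier gene, rose 1.15-fold (adjusted p = 0.0286), a call lost whichever of the 6 arrays was left out (adjusted p 0.0518 to 0.110). Cyb5r1 and Cyb5b had log2 fold changes of 0.12 and 0.10 (adjusted p = 0.160 and 0.326).

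Of 11 measured genes of haem synthesis and breakdown, all bright, 2 rose and none fell, near the 17.2% called among all genes above the level, with a median log2 fold change of 0.08. Both act in breakdown. Hmox1, the inducible haem oxygenase gene, had 12.29, 12.41 and 12.36 in 4OHT wells and 11.61, 11.66 and 11.65 in vehicle wells (log2 fold change 0.72, adjusted p = 0.000469). Blvra, which reduces the biliverdin so formed, rose 1.21-fold (adjusted p = 0.0180), which no longer passed without 4OHT replicate 1 or 2 or vehicle replicate 1 or 2 (adjusted p 0.0312 to 0.0692 over the 6). Hmox2, the constitutive oxygenase, and Blvrb had log2 fold changes of -0.15 and 0.19 (adjusted p = 0.0804 and 0.101).

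**Figure D4:**
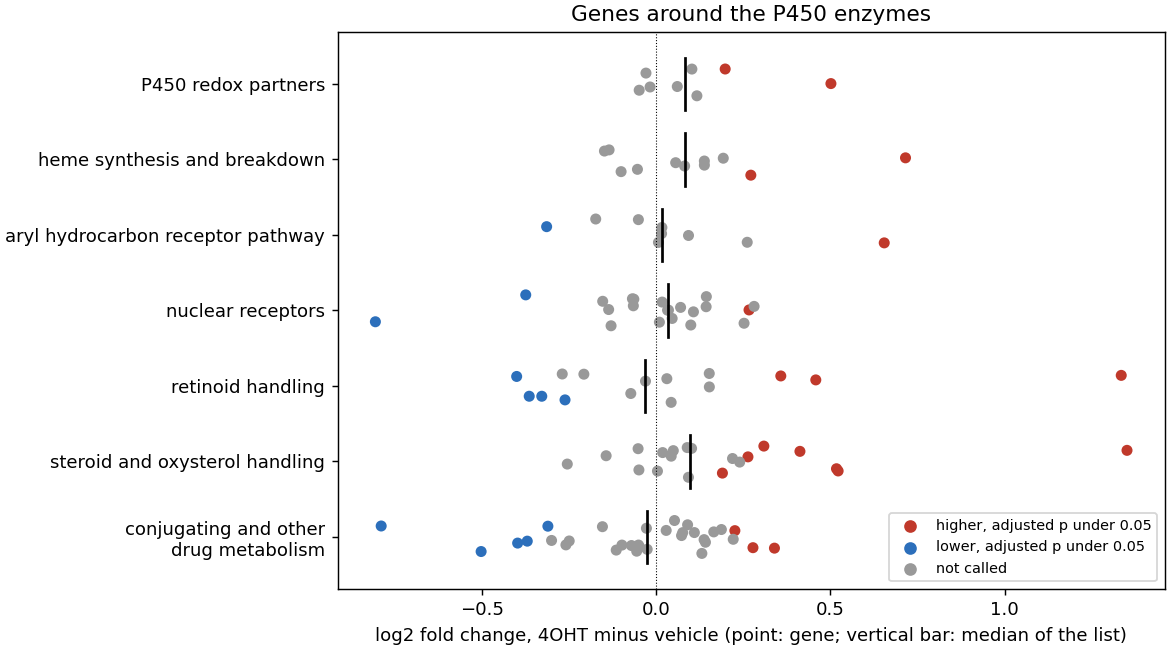
Log2 fold changes (4OHT minus vehicle) of the genes of 7 lists around the P450 enzymes, each point a gene and each vertical bar the median of its list, red where higher and blue where lower at an adjusted p under 0.05. Steroid and oxysterol handling genes hold 7 that rose and none that fell, and retinoid genes hold 3 that rose and 4 that fell.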

How the data were processed

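The authors deposited RMA values on the log2 scale for 3 4OHT and 3 vehicle arrays, and RMA, oligo and limma appear in the submitters' processing notes with no versions. RMA corrects background, equalizes array distributions and compresses differences of dim probe sets. No genome build is named in the labels.

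The platform annotation gives a single symbol to 23521 of 41345 probe sets, several to 1814 and none to 16010. These left 22180 genes, each by its probe set of highest mean. All 96 P450 genes matched RefSeq (GRCm38.p6) by gene number. Groups were compared over all genes in R 4.3.3 with limma 3.58.1 (lmFit, eBayes, two-sided, Benjamini-Hochberg), called at an adjusted p under 0.05. Fold changes are 4OHT minus vehicle. The number of arrays limits precision. The fit was also run on simulated independent noise with added changes, which checks the code and not the calls made here.

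Named are Cyp1b1, Cyp1a1, Gli1, every bright or called P450 gene, and up to 4 genes of smallest p per related list. Further markers, and the dim P450 and other genes given with values, were chosen after their values were seen. Members and lists were chosen with earlier results of these data known. 12 alternatives were run per gene (11 for dim genes).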

Additional observations from a re-analysis of the deposited data

How the results depend on the processing

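With 1 array left out, 5 to 9 P450 genes were called, against 10 with all arrays (5 to 7 bright ones, against 9), the fewest without 4OHT replicate 2. At an adjusted p under 0.01, 3 were called, all of them bright. 5 of the 10 calls held in all 12 alternatives. All genes called numbered 2662, against 1220 to 2326 with 1 array left out, 1568 with the replicate number as a block, 4123 with a trended and robust estimate and 1010 at an adjusted p under 0.01. Genes of the related lists called numbered 31, against 18 to 27 with 1 array left out, 47 with the trended estimate and 17 at the stricter threshold. The bright P450 genes numbered 27, and 25 to 27 with 1 array left out. They numbered 26 with the mean of the probe sets of a gene, 26 with both group means above the level (8 of them called), and 16 with either higher level of brightness. Cyp7b1 was called with arrays centred on their medians, with a second quantile normalization and among genes above the level (adjusted p 0.0354 to 0.233 over 12 alternatives). Cyp4a12b was not called with a second quantile normalization (adjusted p = 0.0560; 0.0195 to 0.139 over 12 alternatives).

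Same-numbered arrays showed little shared deviation (r = 0.062, -0.024 and 0.043 for numbers 1 to 3). Arrays of unlike number had r from -0.076 to 0.031. With 3 arrays per group these values cannot settle whether the numbers pair wells. With the block 8 P450 genes, 8 of them bright, and 25 genes of related lists were called; Cyp4a12b and Cyp21a1 lost their calls. Differences of 9 uncalled genes changed sign when 1 array was left out, with ranges of -0.14 to 0.057 for Cyp26c1, -0.044 to 0.056 for Cyp2d22, -0.094 to 0.14 for Cyp2d40, -0.15 to 0.024 for Cyp2f2, -0.070 to 0.0045 for Cyp2s1, -0.048 to 0.068 for Cyp2w1, -0.0022 to 0.050 for Cyp4f13, -0.046 to 0.14 for Cyp4x1 and -0.16 to 0.033 for Cyp8b1. The causes were not tested.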

Other observations

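Of 32 measured conjugating and other drug metabolism genes, 24 of them bright, 3 rose and 5 fell, where 12% of all genes and 17.2% of those above the level were called. They had a median log2 fold change of -0.026 against -0.0051 over all genes. Ces2g, a carboxylesterase gene, had log2 expression of 9.04, 9.17 and 8.94 in 4OHT wells and 9.82, 9.81 and 9.88 in vehicle wells, 1.73-fold lower (adjusted p = 0.00094). Gstt1, a glutathione transferase gene, fell by 0.50 on the log2 scale (adjusted p = 0.0037), and Aox1, an aldehyde oxidase gene, by 0.31 (adjusted p = 0.0054). Ephx2, which hydrolyses the fatty acid epoxides that CYP2J and CYP2C enzymes make, rose 1.27-fold (adjusted p = 0.0107). These 4 calls held without any of the 6 arrays.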
